A study of Mus musculus with 14 samples.

Results

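A set of 9 B cell genes was followed across 14 Affymetrix arrays of sorted mouse bone marrow stem and progenitor cells. They were taken by gene symbol: every probe set annotated to Vpreb1, Igll1, Vpreb3, Cd79a, Cd79b, Blnk, Ebf1, Pax5 or Ms4a1 was kept, which gave 13 of the 22626 probe sets measured, for 9 of 12393 genes. All mice were C57BL/6, aged 8 to 12 weeks, carried Dnmt1fl/fl alleles and had been given poly(I)poly(C) 7 times, at 25 ug/kg. The mice called knockout here also carried Mx-Cre, a transgene that makes Cre recombinase when interferon is induced and so is active in many cell types, and the mice called control lacked it. Bone marrow was collected 4 days after the final dose and pooled from 4 to 6 mice of the same genotype, so errors and p-values describe pools rather than single mice. After magnetic depletion of mature cells, long-term hematopoietic stem cells (LT-HSC, Lineage- c-Kit+ Sca-1+ CD34-), multipotent progenitors (MPP, CD34+ within the same gate) and myeloid progenitors (c-Kit+ Sca-1-) were sorted. There were 2 control and 2 knockout arrays of LT-HSC, 2 and 2 of MPP, and 3 and 3 of myeloid progenitors, and the labels state that the control and knockout sample of a replicate came from littermates.

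B cell development runs through stages that are defined by the assembly of the immunoglobulin genes. Before a light chain exists, the heavy chain pairs with the surrogate light chain, made of the VpreB and λ5 proteins, and signals through the CD79a and CD79b chains and the adaptor BLNK. The transcription factors EBF1 and PAX5 switch this programme on and hold cells to the B lineage, and CD20, the product of Ms4a1, appears later. Stem cells and myeloid progenitors are generally described as having little of any of these transcripts.

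Promoter sequences are shown because 8 of the 9 genes were higher together on the same 4 arrays. RefSeq (assembly GRCm38.p6) gave the 250 bases before the transcription start for 8 promoters of 7 of the genes, Ebf1 having 2, and Cd79b and Ms4a1 were not in the table. Printed 5′ to 3′ on the gene's strand, with matches to 3 motifs in capitals, the 5 promoters that held a match are these.
Vpreb1, chr16:16869256-16869505, minus strand: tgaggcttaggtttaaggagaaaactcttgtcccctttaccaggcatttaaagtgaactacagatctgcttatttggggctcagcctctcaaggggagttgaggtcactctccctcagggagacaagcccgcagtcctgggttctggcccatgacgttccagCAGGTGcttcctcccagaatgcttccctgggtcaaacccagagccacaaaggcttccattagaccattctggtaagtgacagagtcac
Igll1, chr16:16863986-16864235, minus strand: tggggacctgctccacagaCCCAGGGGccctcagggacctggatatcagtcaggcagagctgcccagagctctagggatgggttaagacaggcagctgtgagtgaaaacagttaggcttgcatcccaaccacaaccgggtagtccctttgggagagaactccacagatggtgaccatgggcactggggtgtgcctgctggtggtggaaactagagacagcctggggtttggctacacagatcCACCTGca
Vpreb3, chr10:75948050-75948299, plus strand: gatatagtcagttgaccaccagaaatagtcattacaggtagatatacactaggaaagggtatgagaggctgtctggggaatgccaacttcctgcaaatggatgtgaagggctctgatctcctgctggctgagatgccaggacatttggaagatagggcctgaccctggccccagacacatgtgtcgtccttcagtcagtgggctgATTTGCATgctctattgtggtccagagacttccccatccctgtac
Cd79a, chr7:24897247-24897496, plus strand: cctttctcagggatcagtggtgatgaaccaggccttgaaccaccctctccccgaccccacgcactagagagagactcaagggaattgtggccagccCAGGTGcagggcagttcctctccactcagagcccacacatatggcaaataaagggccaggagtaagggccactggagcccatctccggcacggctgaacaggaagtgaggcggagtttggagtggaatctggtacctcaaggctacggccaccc
Blnk, chr19:40994222-40994471, minus strand: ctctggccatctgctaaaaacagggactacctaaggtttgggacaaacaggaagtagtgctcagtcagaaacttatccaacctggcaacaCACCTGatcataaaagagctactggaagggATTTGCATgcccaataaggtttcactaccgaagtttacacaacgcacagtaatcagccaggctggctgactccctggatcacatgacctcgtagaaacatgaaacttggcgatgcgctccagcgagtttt

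The octamer bound by OCT factors (ATGCAAAT or its reverse complement ATTTGCAT) lay in the promoters of Vpreb3, 45 to 38 bases before the start, and Blnk, 130 to 123 bases before it. Of all 32851 mouse promoters in the table, 526 (1.60%) held it. The E box letters CAGGTG, or CACCTG on the other strand, which E proteins can bind, were found in Vpreb1, Igll1, Cd79a and Blnk, and in 17.2% of all promoters. The EBF half-sites CCCNNGGG, which read alike on both strands, were found in Igll1 and in 11.8% of all promoters. The Pax5 promoter and both Ebf1 promoters held none of the 3 motifs. These matches are a description of letters in a fixed window.

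The genes of the B cell programme were higher on the 4 LT-HSC arrays than on the other 10. For 8 of the 9 genes, every LT-HSC array exceeded every MPP and myeloid progenitor array, in control samples (8.23% of all probe sets did so), in knockout samples (9.48%) and over both genotypes (1.53%). Ms4a1 was the exception. In sorted bulk samples a few cells with much of a transcript and many cells with little of it cannot be told apart. Counting probe sets, 11 of 13 were separated in this way in control samples and over both genotypes, and 12 of 13 in knockout samples. Values below are intensities on a linear scale as deposited, which are compared between samples for 1 probe set and not between genes.

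**Figure D1:**
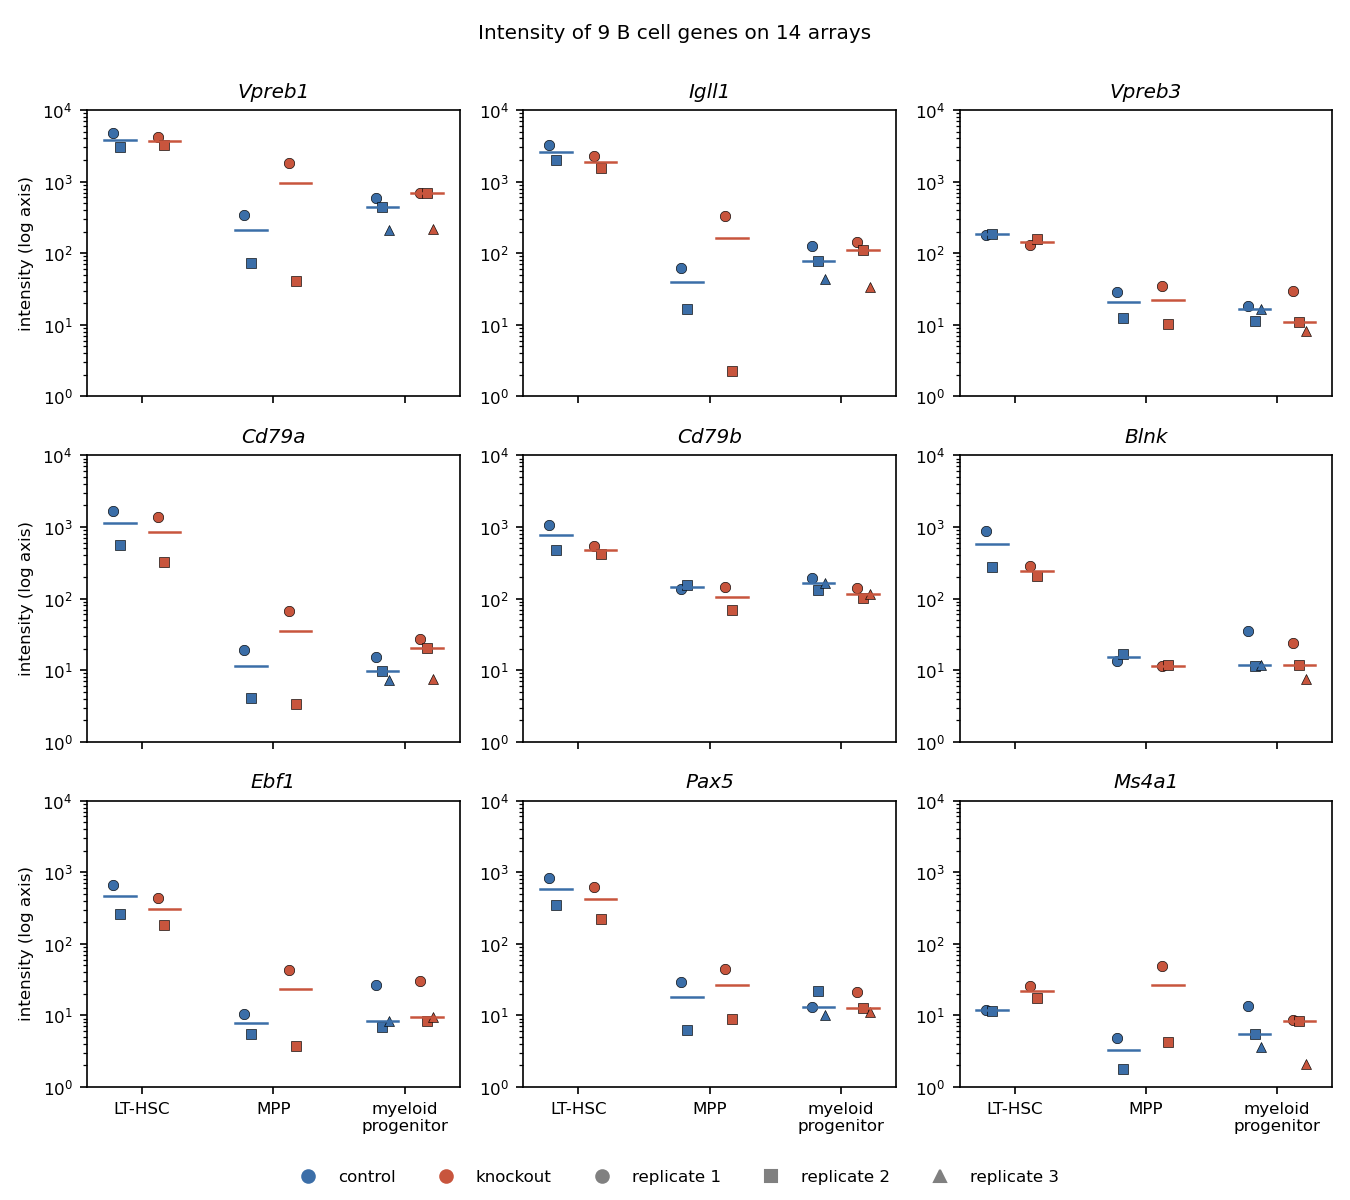
Deposited intensity (log axis) of each of the 9 genes on 14 arrays, by population, with control in blue and knockout in red, symbols for the replicate number and a bar at each group's median. The 4 LT-HSC arrays lie above the other 10 arrays for every gene but Ms4a1, and replicate 1 of the knockout MPP lies apart from replicate 2 for Vpreb1 and Igll1.

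Vpreb1, Igll1 and Vpreb3 make the surrogate light chain and its companion. Vpreb1, which encodes the V-like part of the surrogate light chain, read 4729 and 3010 in control LT-HSC and 4185 and 3205 in knockout LT-HSC. It read 341.6 and 73.9 in control MPP, 1846 and 41.5 in knockout MPP, 598.0, 444.6 and 207.7 in control myeloid progenitors, and 686.5, 684.9 and 221.3 in knockout ones. The LT-HSC arrays were highest, but the first knockout MPP array came within a ratio of 1.63 of the lowest of them. The difference of log2(intensity + 16) between LT-HSC and MPP was 4.50 ± 1.16 (SE; adjusted p = 0.0953) in control and 3.61 ± 1.16 (adjusted p = 0.354) in knockout samples, and against myeloid progenitors it was 3.34 ± 1.06 (adjusted p = 0.121) and 3.00 ± 1.06 (adjusted p = 0.201). None of these 4 differences passed the threshold of 0.05, although the groups did not overlap. Vpreb1 has a near-identical neighbour, Vpreb2, and 1 further probe set annotated to both, which is not counted here, ran from 408.8 to 913.8 in LT-HSC and from 11.7 to 87.5 elsewhere.

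Igll1, which encodes λ5, the constant-like part of the surrogate light chain, read 3275 and 1978 in control and 2246 and 1570 in knockout LT-HSC. Control MPP read 61.4 and 16.8, knockout MPP 327.6 and 2.24, control myeloid progenitors 124.3, 77.1 and 43.5, and knockout myeloid progenitors 142.0, 110.1 and 33.5. The groups did not overlap, and again the first knockout MPP array was the highest outside LT-HSC. Igll1 was higher in LT-HSC than in MPP by 5.71 ± 0.99 on the log2 scale in control samples (adjusted p = 0.0156), and the 4.64 ± 0.99 in knockout samples did not pass (adjusted p = 0.0837). Against myeloid progenitors it was higher by 4.83 ± 0.90 (adjusted p = 0.00853) and 4.31 ± 0.90 (adjusted p = 0.0258). Its identifier marks this probe set as one that may also bind other transcripts, and the second Igll1 probe set, without that mark, was higher in LT-HSC than in control MPP by 2.75 (adjusted p = 0.0188) and than in control and knockout myeloid progenitors by 2.41 and 2.39 (adjusted p = 0.00842 and 0.0132). Its difference from knockout MPP, 2.32, did not pass (adjusted p = 0.0837).

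Vpreb3, whose product stays in the endoplasmic reticulum and binds newly made receptor chains, read 182.0 and 187.0 in control LT-HSC and 128.3 and 158.3 in knockout LT-HSC. The control MPP arrays read 28.8 and 12.5, the knockout MPP arrays 34.8 and 10.3, and the 6 myeloid progenitor arrays ran from 8.12 to 29.9. All 4 LT-HSC arrays were therefore well clear of the rest. Vpreb3 was higher in LT-HSC than in MPP by 2.51 ± 0.39 in control (adjusted p = 0.00775) and 2.14 ± 0.39 in knockout samples (adjusted p = 0.0414), and higher than in myeloid progenitors by 2.63 ± 0.36 (adjusted p = 0.00114) and 2.30 ± 0.36 (adjusted p = 0.00395).

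The signalling chains of the receptor were next. Cd79a, which encodes CD79a (Igα), read 1682 and 559.4 in control LT-HSC and 1380 and 320.2 in knockout LT-HSC. It read 19.0 and 4.14 in control MPP, 67.8 and 3.34 in knockout MPP, 15.2, 9.60 and 7.20 in control myeloid progenitors, and 26.9, 20.5 and 7.51 in knockout ones. Within each LT-HSC genotype the first array was several times the second, and both were above all other arrays. Cd79a was higher in LT-HSC than in MPP by 5.30 ± 0.77 (adjusted p = 0.00451) in control and 4.15 ± 0.77 (adjusted p = 0.0465) in knockout samples, and than in myeloid progenitors by 5.20 ± 0.71 (adjusted p = 0.00114) and 4.39 ± 0.71 (adjusted p = 0.00478).

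Cd79b, which encodes the partner chain CD79b (Igβ), differed from the rest of the set in that it was above the array median on all 14 arrays. It read 1057 and 478.8 in control and 543.1 and 418.8 in knockout LT-HSC, 135.3 and 156.4 in control MPP, 142.9 and 68.2 in knockout MPP, and 102.5 to 190.5 with a median of 137.3 over the 6 myeloid progenitor arrays. The lowest LT-HSC array was 2.20 times the highest other array. Cd79b was higher in LT-HSC than in control MPP by 2.23 ± 0.42 (adjusted p = 0.0244) and than in control and knockout myeloid progenitors by 2.11 ± 0.39 (adjusted p = 0.00747) and 1.90 ± 0.39 (adjusted p = 0.0214). In knockout samples the difference from MPP was 2.11 ± 0.42 and did not pass (adjusted p = 0.0645).

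Blnk encodes the adaptor that links the receptor to its downstream enzymes. It read 864.3 and 275.8 in control LT-HSC and 283.7 and 206.6 in knockout LT-HSC, and 11.4 to 17.1 over the 4 MPP arrays. The first myeloid progenitor array was the highest outside LT-HSC in each genotype, with 35.5, 11.3 and 11.6 in control and 23.8, 11.7 and 7.48 in knockout samples. Blnk was higher in LT-HSC than in MPP by 4.11 ± 0.53 (adjusted p = 0.00222) in control and 3.31 ± 0.53 (adjusted p = 0.0213) in knockout samples. Against myeloid progenitors it was higher by 3.89 ± 0.48 (adjusted p = 6.76e-04) and 3.08 ± 0.48 (adjusted p = 0.00399).

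Of the transcription factors, Ebf1, which opens the B cell programme, read 657.6 and 263.6 in control LT-HSC and 433.5 and 184.8 in knockout LT-HSC on the brightest of its 3 probe sets. The MPP arrays read 10.3 and 5.47 in control and 42.5 and 3.75 in knockout samples, and the myeloid progenitor arrays ran from 6.78 to 30.0. LT-HSC stood apart on all 3 probe sets: the others ran from 114.9 to 838.2 and from 81.2 to 259.9 in LT-HSC, with 55.9 and 11.7 as their highest values elsewhere. Ebf1 was higher in LT-HSC than in MPP by 4.24 ± 0.62 in control samples (adjusted p = 0.00451), and its 3.18 ± 0.62 in knockout samples did not pass (adjusted p = 0.0566). The other probe sets gave 4.17 and 3.08 in control samples (adjusted p = 0.0101 and 0.00161), and 2.18 and 2.59 in knockout samples, of which the second passed (adjusted p = 0.329 and 0.0109). Against myeloid progenitors the brightest probe set was higher by 3.89 ± 0.56 (adjusted p = 0.00159) and 3.26 ± 0.56 (adjusted p = 0.00717).

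Pax5 encodes the factor that commits cells to the B lineage. Its intensities were 817.4 and 346.4 in control LT-HSC, 627.1 and 223.5 in knockout LT-HSC, 29.7 and 6.26 in control MPP, and 44.8 and 8.91 in knockout MPP, with myeloid progenitors from 10.2 to 22.1. The groups did not overlap, and the first MPP array was the higher of the 2 in each genotype. Pax5 was higher in LT-HSC than in MPP by 4.15 ± 0.58 (adjusted p = 0.00398) in control and 3.37 ± 0.58 (adjusted p = 0.0323) in knockout samples, and than in myeloid progenitors by 4.10 ± 0.53 (adjusted p = 7.70e-04) and 3.65 ± 0.53 (adjusted p = 0.00266).

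Ms4a1, the gene of the mature B cell protein CD20, did not share the pattern. On the brighter of its 2 probe sets it was dim on all arrays, with 12.0 and 11.5 in control LT-HSC, 25.9 and 17.5 in knockout LT-HSC, 4.86 and 1.76 in control MPP, 2.09 to 13.7 in myeloid progenitors, and 49.4 and 4.21 in knockout MPP. On this probe set the highest value was on the first knockout MPP array, and the groups overlapped. The log2 differences between LT-HSC and MPP were 0.55 ± 0.39 (adjusted p = 0.627) in control and 0.01 ± 0.39 (adjusted p = 0.999) in knockout samples, and those from myeloid progenitors were 0.21 ± 0.36 (adjusted p = 0.839) and 0.71 ± 0.36 (adjusted p = 0.390). The dimmer probe set read 19.4 and 5.52 in control LT-HSC, 34.1 and 10.9 in knockout LT-HSC, 2.27 to 7.06 in MPP and 1.34 to 10.3 in myeloid progenitors. There the groups overlapped in control but not in knockout samples, and the differences from MPP were 0.53 (adjusted p = 0.518) and 0.88 (adjusted p = 0.406).

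In counts, 7 of the 9 genes were called higher in LT-HSC than in MPP in control samples, against 0.552% of all probe sets called higher, and their median difference was 4.15 against 0.00 for all probe sets. Vpreb1 and Ms4a1 were the genes not called. Leaving out an LT-HSC or MPP array, here and below, leaves its group without a replicate. A call can then be lost without a smaller difference, as for Igll1 without the first control MPP array. The call depended on single arrays for several genes: without the first control LT-HSC array 4 genes were called, with Cd79a at 4.44 (adjusted p = 0.0509), Cd79b at 1.57 (adjusted p = 0.190) and Igll1 at 5.23 (adjusted p = 0.112). Without either control MPP array 5 were called, Cd79b and Igll1 being lost at 2.14 and 6.31 (adjusted p = 0.171 and 0.0528) or 2.32 and 5.12 (adjusted p = 0.0670 and 0.0765). Without either knockout MPP array Vpreb1 passed, at 4.49 in both cases (adjusted p = 0.00927 and 0.00886), which made 8 genes. With only the compared groups in the fit 5 were called, as Vpreb1 passed and Blnk, Vpreb3 and Cd79b did not (adjusted p = 0.0591, 0.172 and 0.172).

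In knockout samples 4 of the 9 genes, Cd79a, Pax5, Blnk and Vpreb3, were called higher in LT-HSC than in MPP, against 0.133% of all probe sets, with a median difference of 3.31. A further 4 had an unadjusted p under 0.05 only. This count was the least stable of the set: it fell to 0 without the first knockout LT-HSC array or the second knockout MPP array, and to 1 or 2 when any 1 of the 6 myeloid progenitor arrays was left out, which enter this comparison only through the shared estimate of the spread. It was 3 without the first knockout MPP array or either control MPP array, and 6 without either control LT-HSC array or the second knockout LT-HSC array. Without the first knockout MPP array the difference rose to 6.13 for Vpreb1 (adjusted p = 0.0185) and 6.76 for Igll1 (adjusted p = 0.00369), both then called.

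Against myeloid progenitors, 7 of the 9 genes were called higher in LT-HSC in control samples (1.29% of all probe sets) and 7 in knockout samples (0.672%), with medians of 3.89 and 3.08. Vpreb1 and Ms4a1 were again the genes not called. The control count was 5 without the first control LT-HSC array, when Cd79b stood at 1.45 and Igll1 at 4.35 (adjusted p = 0.127 and 0.112). The knockout count was 2 without the first knockout LT-HSC array, when Pax5 and Vpreb3 kept their calls, and 5 without the second or the third knockout myeloid progenitor array. Without either knockout MPP array both counts were 8, as Vpreb1 passed in control (adjusted p = 0.0114 and 0.0110) and in knockout samples (adjusted p = 0.0287 and 0.0276).

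**Figure D2:**
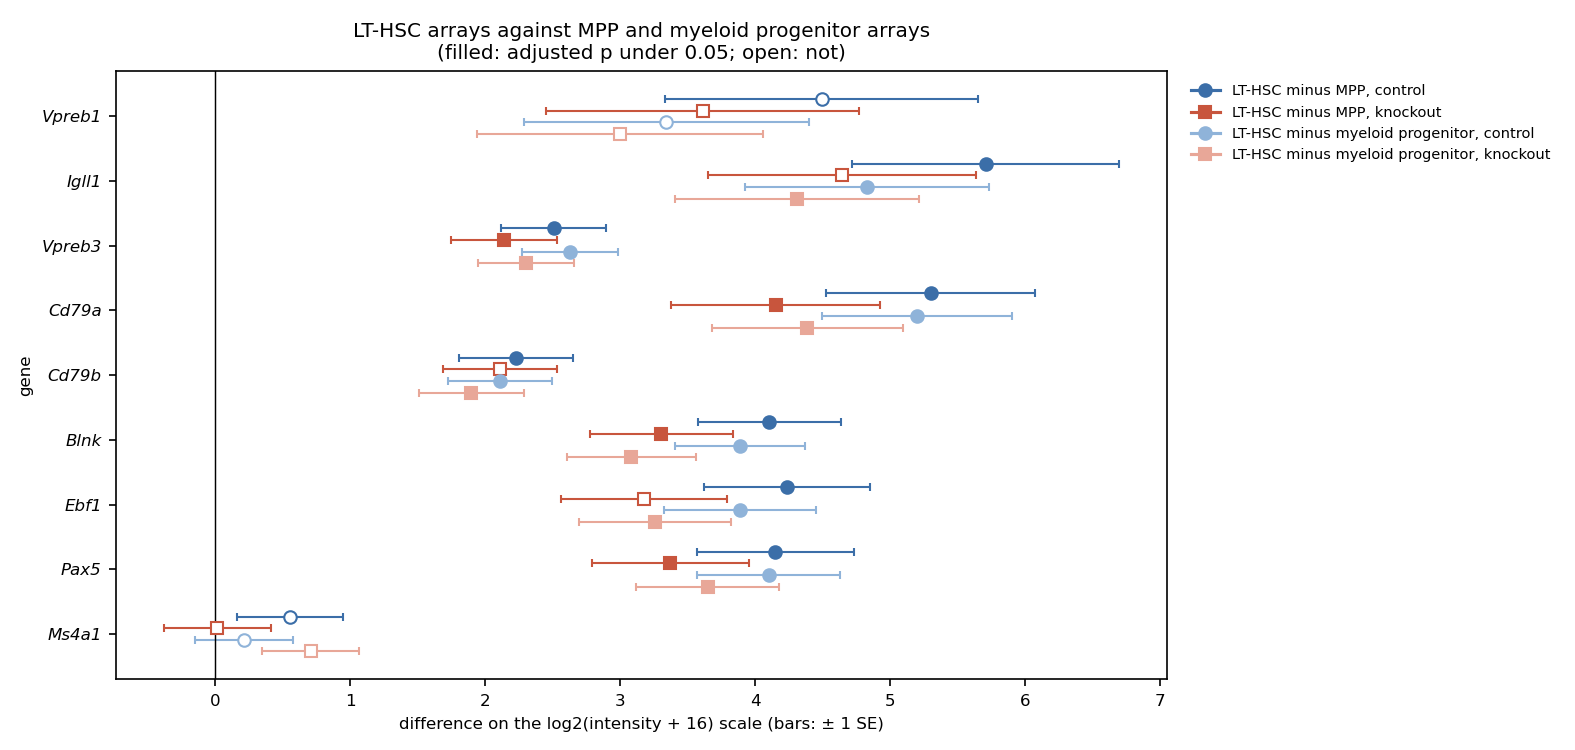
Difference between LT-HSC and each other population for the 9 genes, on the log2(intensity + 16) scale with bars of ± 1 SE, control in blue circles and knockout in red squares (dark against MPP, pale against myeloid progenitors), and filled symbols where the adjusted p was under 0.05. All genes but Ms4a1 lie at 1.90 or higher in every comparison, while Vpreb1 has the widest bars and open symbols throughout.

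MPP and myeloid progenitors were not told apart by these genes. No member was called between them in control samples (0.0309% of all probe sets) or in knockout samples (0%), by limma, and none had an unadjusted p under 0.05. The median differences were -0.22 and 0.08, and the largest for a single gene was Vpreb1 with -1.15 ± 1.06 in control samples. Of the order LT-HSC, then MPP and myeloid progenitors, only the first step held called members. These were 7 of the 9 genes against MPP in control and 4 in knockout samples.

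Between knockout and control no member was called in LT-HSC (0.0575% of all probe sets), MPP (0.0265%) or myeloid progenitors (0.0928%). In LT-HSC, 7 of the 9 genes had lower means in knockout samples, with a median of -0.45 and a range from -0.95 ± 0.53 for Blnk (adjusted p = 0.777) to 0.42 ± 0.39 for Ms4a1. None of the 9 had an unadjusted p under 0.05. The values rested on single arrays: without the first control LT-HSC array the difference was -0.06 for Blnk, 0.41 for Cd79a, 0.24 for Pax5, 0.22 for Ebf1, 0.10 for Igll1 and Cd79b, and 0.47 for Vpreb1. For Vpreb1 it was -0.43 without the second control array and -0.29 without the first knockout array, and the 0.02 turned to -0.04 without normalization between arrays and to -0.03 with array medians set equal. In MPP the median was 0.57, and Ms4a1, at 0.96 ± 0.39, had the only unadjusted p under 0.05 in the limma fit (adjusted p = 1.00). In myeloid progenitors the median was 0.02.

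The same comparison within littermate pairs showed which samples set these medians. In LT-HSC the knockout sample was lower for 8 of 9 genes in the first pair, with a median of -0.40, and for 7 of 9 in the second, with a median of -0.26. Cd79a, Cd79b, Pax5, Ebf1, Igll1, Blnk and Vpreb3 were lower in both pairs. In MPP the first pair had a median of 1.27 and 1 gene lower, and the second a median of -0.14 and 7 genes lower, so the pairs pointed in opposite directions. In the 3 myeloid progenitor pairs the medians were 0.23, 0.20 and -0.13.

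**Figure D3:**
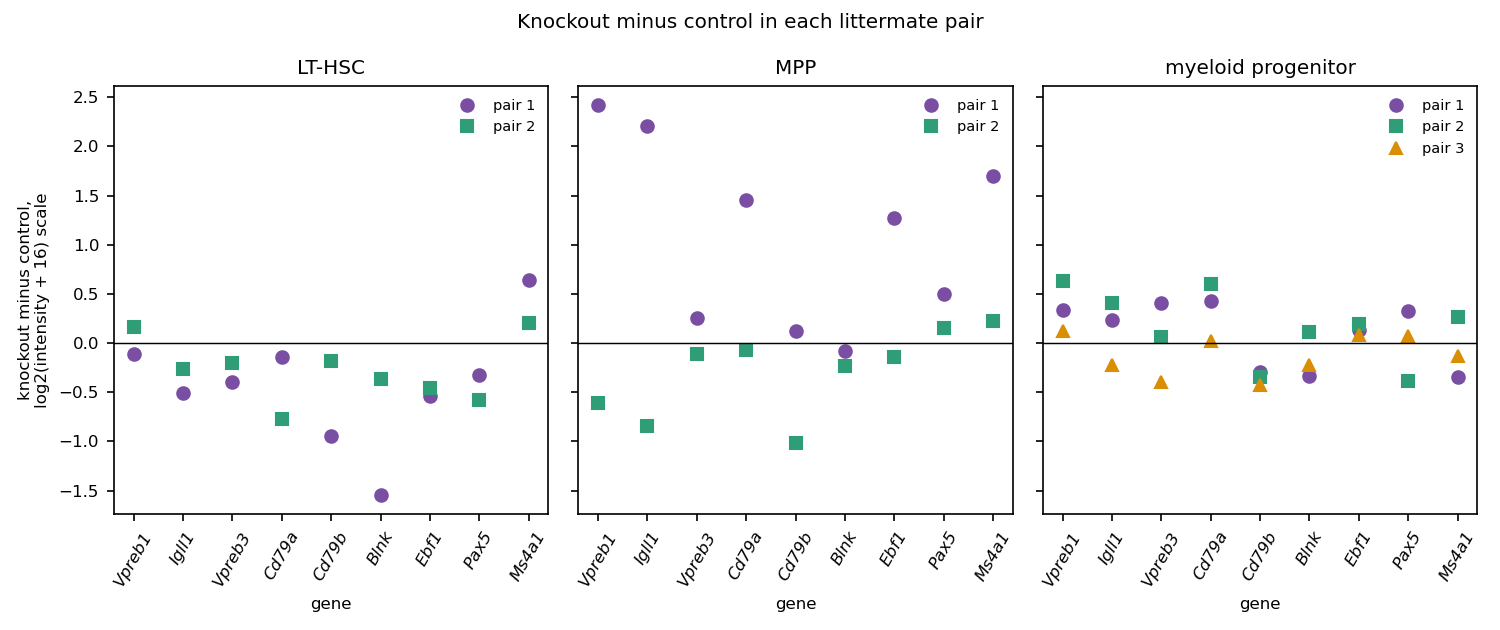
Knockout minus control within each littermate pair on the log2(intensity + 16) scale, for 9 genes in each population, with a symbol for each pair. In MPP the first pair reaches 2.42 for Vpreb1 and 2.21 for Igll1 while the second pair is below 0 for both.

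Whether the excess in LT-HSC differed between the genotypes was tested as the difference between the knockout and the control value of each LT-HSC comparison. It was below 0 for all 9 genes against MPP, with a median of -0.80, and for 8 of 9 against myeloid progenitors, with a median of -0.45. No member was called, and 0% of all probe sets were, although 853 and 794 of the 22626 probe sets had an unadjusted p under 0.05. The largest of the 9 values against MPP was -1.15 ± 1.09 for Cd79a, so a difference between the genotypes was not detectable with these arrays. The comparisons share their samples, and their medians are not separate evidence.

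Samples of a group also differed from each other. The first replicate read higher than the second for 8 of 9 genes in control LT-HSC, 8 in knockout LT-HSC, 7 in control MPP and 8 in knockout MPP. The median difference of the first from the second on the log2(intensity + 16) scale was 1.32, 0.62, 0.48 and 1.48 in that order, and it reached 5.03 for Vpreb1 in knockout MPP. The first knockout MPP array was thus the sample outside LT-HSC with the highest value of Vpreb1, Igll1, Cd79a, Ebf1, Pax5, Vpreb3 and Ms4a1. The ratio of the 3′ to the 5′ control probe sets of Gapdh was 5.44 and 5.15 on the first LT-HSC arrays of the genotypes and 3.07 and 2.46 on the second, and for Actb it was 0.81 and 0.75 against 0.97 and 1.09. On the MPP arrays the Gapdh ratio lay between 2.44 and 2.86 and on the myeloid progenitor arrays between 2.25 and 5.27. The part of RNA quality in the result was not tested. Without the first LT-HSC pair, a choice made after seeing the data, 5 and 1 members were called against MPP in control and knockout samples and 5 and 4 against myeloid progenitors.

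Across the 14 arrays each gene was set against the mean of the other members after standardising. Pearson's r was between 0.914 (Vpreb1) and 0.985 (Ebf1) for 8 genes and 0.513 for Ms4a1, as a description in which the LT-HSC arrays carry much of the range. Over the 10 arrays without LT-HSC it was 0.210 for Blnk and 0.481 for Cd79b, and 0.758 to 0.941 for the other 7 genes. Of these 10 arrays, the first knockout MPP array had the highest value for each of those 7 genes. The mean of the standardised members was 0.22 on it and at most -0.20 on the rest, so that array carries much of the range there. Of 6849 genes brighter than 64 on at least 2 arrays, the 10 with the pattern most like the mean of the members were Pou2af1 (r = 0.986), Irf4 (0.966), Atp1b1 (0.965), Bst1 (0.965), Sdc4 (0.964), Blk (0.960), Gfra2 (0.960), Slamf6 (0.959), Id3 (0.957) and Rag1 (0.946). The brightness filter favours this pattern: 6 of the 10 (Irf4, Bst1, Sdc4, Blk, Id3 and Rag1) exceeded 64 on LT-HSC arrays only. Pou2af1, a coactivator that works with OCT factors in B cells, ran from 659.1 to 2047 in LT-HSC, from 11.2 to 172.2 in MPP and from 22.0 to 134.7 in myeloid progenitors. Rag1, one of the enzymes that cut immunoglobulin genes, ran from 96.0 to 493.9 in LT-HSC and from 3.19 to 57.5 elsewhere.

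Other genes of the B lineage were read from lists. Calls of list genes, here and below, come from the fit of all arrays and were not followed when single arrays were left out. Of 9 early lymphoid and B lineage genes, 6 were called higher in control LT-HSC than in control MPP, with a median of 2.38, led by Rag1 at 3.79 (adjusted p = 0.0134), the interleukin 7 receptor gene Il7r at 3.47 (adjusted p = 0.0312), Lef1 at 2.99 (adjusted p = 3.03e-04) and Foxo1 at 2.89 (adjusted p = 0.00433). In knockout samples none of the 9 was called and the median was 0.95, although no probe set passed the test of the difference between these comparisons, and between genotypes within LT-HSC 1 of them, Lef1, fell by 2.06 (adjusted p = 0.0104). Against myeloid progenitors 8 of the 9 were called higher in control LT-HSC, with a median of 3.02, and 3 in knockout LT-HSC, with a median of 1.78. In control LT-HSC against control MPP, only the kinase gene Blk of 8 B cell receptor signalling genes was called, at 2.67 (adjusted p = 0.00398). The median of that list was -0.06. Of 12 mature B cell genes Pou2af1 alone was called in this comparison, at 4.46 (adjusted p = 0.0361), with a median of 0.29. Against control myeloid progenitors 4 mature B cell genes were called, and 3 against knockout ones. Among 7 plasma cell genes Irf4, a factor also active in earlier B cells, was called against control MPP at 2.52 (adjusted p = 0.0398), with a median of 0.16. In knockout LT-HSC against knockout MPP no gene of the signalling, mature and plasma lists was called, with medians of -0.35, 0.42 and 0.42.

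Markers of other cell types were read beside the members. Of 17 T and NK cell genes 1 was called higher in control LT-HSC than in control MPP (Il2rb, 1.72, adjusted p = 0.0407) with a median of 0.09, and 2 in knockout samples (Il2rb, 3.07, adjusted p = 0.00260, and Eomes, 1.31, adjusted p = 0.0213) with a median of 0.74. Their summed intensity was 1014 to 1417 in control and 1505 to 2619 in knockout LT-HSC, against 1207 to 1549 and 1391 to 1546 in MPP and 939.1 to 1450 in myeloid progenitors. Against myeloid progenitors 2 T and NK cell genes were called higher and 1 lower in control LT-HSC, and 6 higher and 1 lower in knockout LT-HSC. The 5 plasmacytoid dendritic cell genes had no call against MPP in either genotype, Ly6d having the largest difference at 0.51 in control and 1.70 in knockout samples (adjusted p = 0.0877). Ly6d was called higher in knockout LT-HSC than in knockout myeloid progenitors, at 2.04 (adjusted p = 0.00530). The list summed to 669.6 to 957.6 in control LT-HSC and 617.8 to 843.8 in control MPP. In knockout samples the sums were 766.5 to 907.4 and 635.0 to 659.5 in that order. Of 7 erythroid genes 4 were called higher in control LT-HSC than in control MPP and none in knockout samples, with medians of 2.31 and 0.96. The called genes were Car1 at 3.86, Ermap at 3.09, Klf1 at 2.94 and Epor at 2.31. The list summed to 1580 to 5735 in control LT-HSC, 347.6 to 540.9 in control MPP and 2663 to 3781 in control myeloid progenitors. In knockout samples the sums were 2989 to 4207, 1693 to 1737 and 2686 to 3309 in that order. Against myeloid progenitors no erythroid gene was called in either genotype, with medians of 0.08 in control and 0.30 in knockout samples. Granule genes of myeloid progenitors went the other way, with 4 of 5 lower in control and 5 of 5 in knockout LT-HSC than in MPP, led by Ctsg at -4.89 and -5.79. No gene of these lists was listed at 0. The part of other cell types in the members' levels was not tested.

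**Figure D4:**
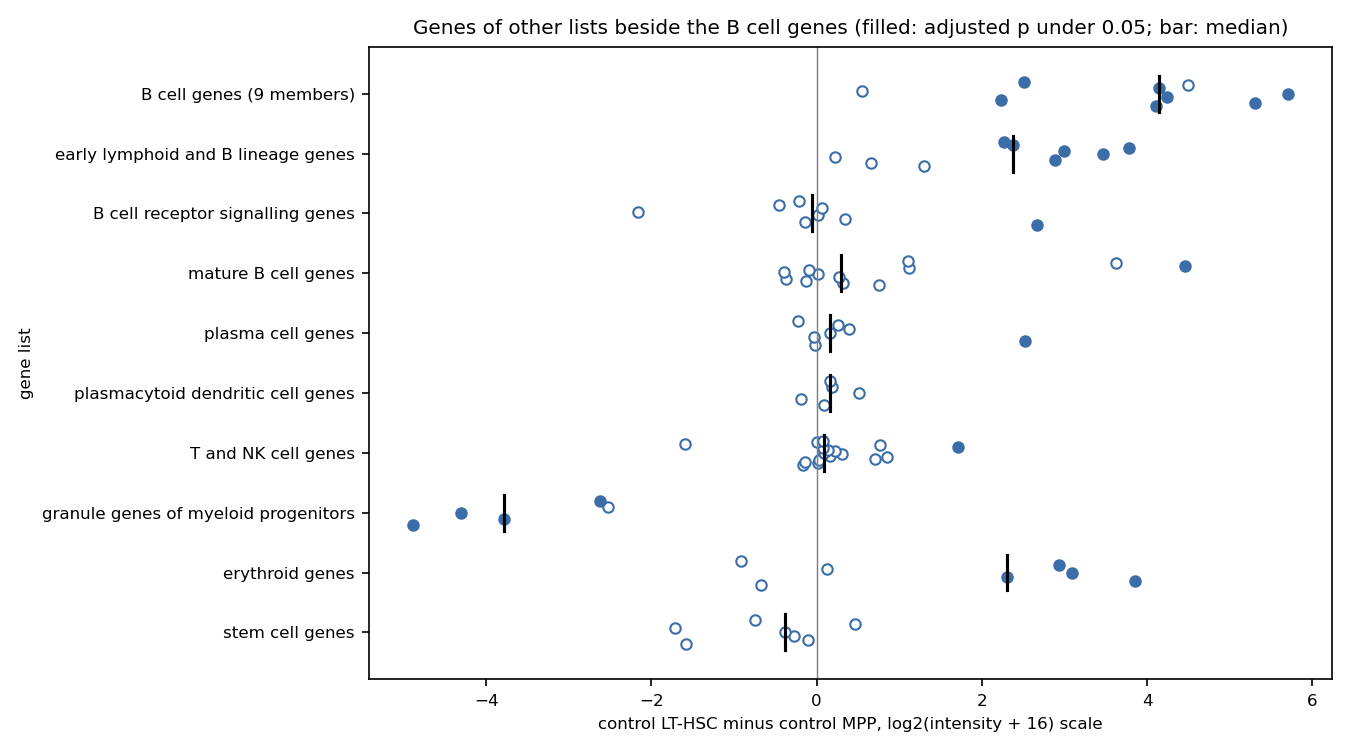
Difference between control LT-HSC and control MPP on the log2(intensity + 16) scale for each gene of the 9 members and of 9 other gene lists, filled where the adjusted p was under 0.05, with a bar at each list's median. The members have a median of 4.15, early lymphoid genes 2.38, erythroid genes 2.31 and granule genes -3.78. The bars of the B cell receptor signalling, plasma and T and NK cell lists lie between -0.06 and 0.16.

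The labels of the arrays were set against the sort markers Cd34 and Kit. Ly6a, the gene of Sca-1, had no probe set of its own and could not be checked. Cd34, which separates the LT-HSC and MPP gates, was lower in LT-HSC than in MPP in control samples, with a log2 difference of -4.17 (adjusted p = 0.00398). In knockout samples the difference was -3.07 (adjusted p = 0.0548), and Kit, at -0.88 and -0.76, was not called. Against myeloid progenitors 1 of the 2 markers was called lower in LT-HSC in control and in knockout samples. None of 7 stem cell genes was called in LT-HSC against MPP in either genotype. In control samples 1 of 7 was above 0, with a median of -0.38 and the largest differences for Procr at -1.72 and Hlf at -1.58. In knockout samples 4 of 7 were above 0, with a median of 0.23. Against myeloid progenitors 6 of 7 were above 0 in control samples, with a median of 0.72, and 7 of 7 in knockout samples, with a median of 0.85 and Procr called (adjusted p = 0.0329). Dnmt1, the targeted gene, ran from 1328 to 2219 on control arrays and from 744.8 to 1305 on knockout arrays, with no overlap. Its differences on that probe set were -0.57, -0.76 and -0.54 in LT-HSC, MPP and myeloid progenitors, and on a second, dimmer probe set -0.99, -1.09 and -1.07. None of them was called, and the sources used here do not say whether either probe set lies in the deleted part.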

How the data were processed

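RNA of each sample was amplified and hybridised to 1 Affymetrix array. The deposited table, made by the authors, holds 1 intensity per probe set and array on a linear scale, as judged from its values. The sources used here do not say how it was background corrected, summarised or scaled. The array medians lay between 41.12 and 49.09, and for arrays the number of samples, not a depth, limits the precision. From these deposited intensities log2(intensity + 16) was computed and quantile normalised here. On this scale changes of dim genes are understated. All 22626 probe sets that are no controls entered 1 limma fit (limma 3.58.1, R 4.3.3) of 6 group means. It used a mean-variance trend and left 8 degrees of freedom, and two-sided p-values were adjusted by the Benjamini-Hochberg method over every probe set, with a threshold of 0.05. No filter on dim probe sets was used, since members could pass it through LT-HSC arrays alone: with a filter at the 40th percentile of an array on at least 2 arrays 12 of 13 member probe sets passed, 1 Ebf1 probe set through LT-HSC arrays alone, and the dimmer Ms4a1 probe set failed. A gene is represented by its probe set with the highest mean. Symbols came from the platform annotation: 20380 probe sets had 1 symbol, 691 several and 1555 none.

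Replicate numbers pair knockout and control samples, which the labels call littermates. Same-numbered samples deviated together (r = 0.406 in LT-HSC, 0.534 in MPP and 0.187, 0.477 and 0.531 in myeloid progenitors). The fit with the pair as a block called no member between genotypes either. Members, lists and tests were chosen with earlier results of these data known. The named genes are the members, Dnmt1, the sort markers, up to 4 called genes of each list (otherwise up to 2 of the largest differences) and the 10 genes most like the members, and a few others were named after their values were seen. On simulated data with this design, 76 of 100 probe sets changed by 2 on the log2 scale and 99 of 100 changed by 4 were recovered for LT-HSC against MPP in control samples, with 6 false calls. The changed probe sets were drawn at random from all, and the noise independently for each array, whereas same-numbered samples here deviated together. The simulation therefore does not give the recovery for the members. The alternatives were other pseudocounts, normalisations, filters and models, a replicate block and each array left out. Figures were drawn with matplotlib 3.10.9.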

Additional observations from a re-analysis of the deposited data

How the results depend on the processing

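Over 24 alternatives, 8 members kept a higher value in LT-HSC in all 4 comparisons with MPP and myeloid progenitors (768 of 768 values), while Ms4a1 fell below 0 in 4 for knockout LT-HSC against MPP, to -0.79 at the lowest. The alternatives reuse the same arrays, on which the LT-HSC values of those 8 genes did not overlap the others. Their direction could therefore hardly change, and the 768 values are not separate evidence. Counts of calls were less stable. Members called in LT-HSC against MPP ranged from 4 to 8 in control and 0 to 6 in knockout samples when each array was left out, and against myeloid progenitors from 5 to 8 and 2 to 8. In knockout LT-HSC against MPP, 2 were called with a pseudocount of 1, 1 with a pseudocount of 64, 2 without the mean-variance trend, 0 when the fit held only the groups compared, and 1 without the first LT-HSC pair. With only the groups compared 5 were called in control LT-HSC against MPP. Without that pair 4 were called in knockout LT-HSC against myeloid progenitors. Whether the same replicate number marks the same mice across populations is not stated in the sources used here. Same-numbered LT-HSC samples and others had r from -0.379 to 0.185, and the main fit did not pair them. With the replicate number as a block, 7 members were called in knockout LT-HSC against MPP, and 8, 7 and 7 in the other comparisons. Of all probe sets, leaving out an array gave 88 to 650 calls (237 with all arrays) in control and 21 to 585 (52) in knockout LT-HSC against MPP, and 274 to 1148 (750) and 182 to 1241 (396) against myeloid progenitors. With only the groups compared there were 22, 2 and 391 in the first 3 of these, and without the first LT-HSC pair 435 in control LT-HSC against myeloid progenitors. The count of members was 0 in all alternatives for knockout against control, MPP against myeloid progenitors and the difference between genotypes, the replicate block included. Calls over all probe sets moved between settings as well, so a changed count of members is not a result about the members alone. The cause of these changes was not tested.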
